A study of Mus musculus with 4 samples.

Results

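The genes described here encode 8 proteins of the blood-testis barrier, Cldn3, Cldn11, Ocln, Tjp1, Jam2, F11r, Gja1 and Cdh2. They were chosen by symbol, without use of any measured value, and all 8 were found among the 31017 gene symbols of the deposited tables. Their messenger RNA was counted in single cells of mouse testis as unique molecular identifiers (UMIs), each of which stands for 1 captured RNA molecule.

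The 4 libraries, 1 per group, came from C57BL/6 mice that all carried an Acr-Gfp transgene, a green fluorescent reporter under the promoter of a gene of male germ cells. For a pair of libraries, testes were taken 7 days postpartum (dpp), freed of their capsule, cut into fragments and cultured for 2 or 7 days on agarose in α-MEM with AlbuMAX beneath a PDMS-ceiling chip. The other libraries came from uncultured testes of 9 dpp and 14 dpp mice, the ages that the cultured tissue would have reached in the animal. The 2-day culture and 9 dpp are called the early pair below, and the 7-day culture and 14 dpp the late pair. How many animals went into a library is not given in the sources used here, and no group has a replicate. Every difference below therefore compares single libraries, culture and library cannot be told apart, and all intervals are 95% intervals for counting error only.

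The blood-testis barrier is formed by neighbouring Sertoli cells, the somatic nurse cells of the seminiferous tubule, and in rodents it is assembled before puberty as the first germ cells enter meiosis. It divides the tubule wall into a basal compartment with spermatogonia and an adluminal compartment with later germ cells. Tight junction strands are built from claudins and occludin, adaptors such as ZO-1 tie them to actin, and adherens and gap junctions share the same contact zone.

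After filtering, 6877 cells remained of the 2-day culture, 5150 of 9 dpp, 4816 of the 7-day culture and 6195 of 14 dpp, with 32078508 to 57585867 UMIs per library. Between 0.677% and 1.35% of the barcodes of the smaller library of a pair also occurred in the other library. Cells were clustered without the junction genes and named from fixed marker lists, which gave 740 Sertoli-like cells in the 2-day culture, 878 at 9 dpp, 529 in the 7-day culture and 1087 at 14 dpp. All 13 Sertoli markers reached at least 1 CPM (UMIs of a gene per 1e6 UMIs of the class) in these cells of every library. The Sertoli-like cells of different libraries lay in different clusters: cluster 9 held 735 and 505 cells of the 2-day and 7-day cultures, cluster 12 held 863 cells of 9 dpp, and clusters 15 and 19 held 746 and 336 cells of 14 dpp. In cluster 19 the germ cell markers took a median of 0.625% of a cell's UMIs, against 0.0437% in the other Sertoli-like cells, so values for 14 dpp are also given without it where they moved. A further cluster of low depth, number 16, with 486 cells of the 2-day culture and a median of 1189 UMIs, was closest to Sertoli cells but was left unnamed. It had 10 Sertoli markers detected and was set aside for its low depth, with no Sertoli marker among its leading genes. With unnamed cells given their closest class, Sertoli-like cells numbered 1226 in the 2-day culture and 888 at 9 dpp.

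Among the 8 genes, the largest differences between cultured and uncultured Sertoli-like cells were those of Gja1 and Cldn3, and the promoters of both are shown first, with that of Cldn11, the claudin whose UMIs came almost wholly from Sertoli-like cells. Each line gives the 250 bases before the gene start in RefSeq's table for GRCm38.p6, 5′ to 3′ on the gene's strand, which is the plus strand for all of them. In GENCODE M21 on GRCm38 the genes span 56377330 to 56402513 on chromosome 10 for Gja1, 134986214 to 134987472 on chromosome 5 for Cldn3 and 31149920 to 31164324 on chromosome 3 for Cldn11. The promoter windows lie at chr10:56377050-56377299 for Gja1, chr5:134985964-134986213 for Cldn3 and chr3:31149670-31149919 for Cldn11. Capitals mark matches on either strand to the GC box GGGCGG, the AP-1 site TGANTCA and the CRE half-site TGACG.
Gja1: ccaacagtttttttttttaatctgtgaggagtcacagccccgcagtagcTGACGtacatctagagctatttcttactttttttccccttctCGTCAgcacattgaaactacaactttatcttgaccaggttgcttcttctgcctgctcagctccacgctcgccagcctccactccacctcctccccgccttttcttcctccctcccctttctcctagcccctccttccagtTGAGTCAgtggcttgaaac
Cldn3: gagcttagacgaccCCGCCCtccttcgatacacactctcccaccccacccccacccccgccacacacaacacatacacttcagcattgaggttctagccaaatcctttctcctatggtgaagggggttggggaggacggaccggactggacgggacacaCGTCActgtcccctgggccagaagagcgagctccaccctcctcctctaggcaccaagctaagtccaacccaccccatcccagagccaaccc
Cldn11: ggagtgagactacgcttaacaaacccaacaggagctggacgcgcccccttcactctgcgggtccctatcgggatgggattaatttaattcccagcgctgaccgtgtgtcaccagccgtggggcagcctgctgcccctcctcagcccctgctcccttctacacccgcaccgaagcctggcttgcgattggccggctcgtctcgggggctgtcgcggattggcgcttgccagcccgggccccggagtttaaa
The Gja1 window held 1 match to the AP-1 letters, starting 19 bases before the gene start, and 2 matches to the CRE half-site. The F11r window, not shown, also held 1 match to the AP-1 letters, starting 109 bases before its gene start, and GC boxes occurred in the windows of Ocln, Tjp1 and F11r. The Cldn3 window held 1 GC box and 1 CRE half-site, and none of the capitalised motifs occurred in the Cldn11 window. Of 32851 mouse promoter windows of the same length, 6.75% held the AP-1 letters, 17.8% the CRE half-site and 32.7% the GC box. The androgen receptor half-site AGAACA (16.1% of all windows), the SOX core ACAAT (27.7%) and the TATA box TATAAA (12.4%) had no match in these windows or in those of Ocln, Tjp1 and F11r. The 6 motifs, the capitals and the promoters shown were chosen after the expression values had been seen. A match describes letters and not a bound site, and no match says only that these letters are not in this window. The table had 6 of the 8 genes, with Jam2 and Cdh2 not matched.

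Cldn11, Jam2, Ocln and F11r had most of their UMIs in Sertoli-like cells of every library. Cldn11, the claudin that Sertoli cells need to seal the barrier, had 86.5% of its UMIs in Sertoli-like cells of the 2-day culture, 97.9% at 9 dpp, 95.5% in the 7-day culture and 97.0% at 14 dpp. In the 2-day culture a further 9.77% lay in the unnamed cluster. Jam2, an adhesion molecule of the immunoglobulin family, followed with 87.9%, 94.3%, 91.9% and 90.8% in the same order. Ocln, which encodes occludin, had 72.9% to 82.7% of its UMIs there, and F11r, which encodes junctional adhesion molecule A, had 67.1% to 73.9%. These shares depend on how many cells of each type a library held and on the RNA per cell, which cannot be told apart in them.

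The shares of the other genes varied more between libraries or lay largely in other cells. Tjp1, which encodes the adaptor ZO-1, had 31.3% to 39.4% of its UMIs in Sertoli-like cells and 35.0% to 50% in spermatogonia-like cells. Cdh2, which encodes N-cadherin, had 56.0% to 68.3% in Sertoli-like cells and 17.3% to 38.9% in spermatogonia-like cells. Gja1, which encodes the gap junction protein connexin 43, had 28.7% in Sertoli-like cells of the 2-day culture, against 90.7% at 9 dpp, 60.2% in the 7-day culture and 85.5% at 14 dpp. Leydig-like cells held 20.3%, 5.38%, 26.4% and 9.83% in the same order, and endothelial-like cells 23.6%, 1.04%, 7.93% and 1.98%. In the 2-day culture the stromal or myoid-like cells held a further 20.3%. Cldn3, a claudin that in the mouse is known to be regulated by androgen and to seal newly formed junctions, had 51.3% to 94.4% of its UMIs in spermatogonia-like cells of the other libraries and 40.0% of only 25 UMIs in the 2-day culture. Sertoli-like cells held 13 of those 25 UMIs, 1.86% at 9 dpp, 5.48% in the 7-day culture and 42.4% at 14 dpp.

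**Figure D1:**
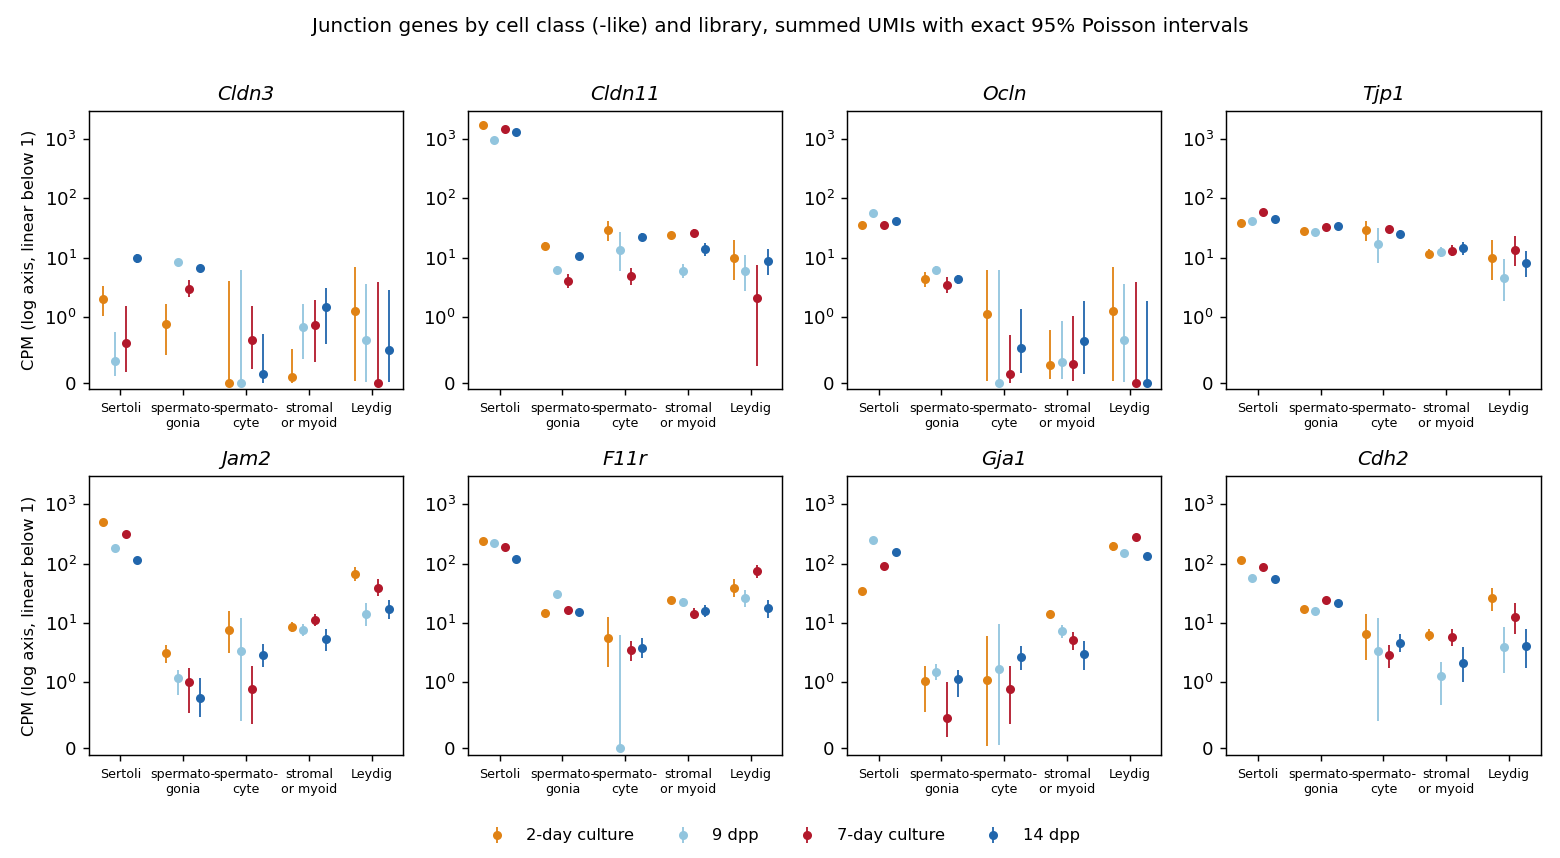
Level of each junction gene in CPM (log axis, linear below 1) in the 5 cell classes with at least 50 cells in every library, 1 point per library with its exact 95% Poisson interval. Cldn11, Jam2, Ocln, F11r and Cdh2 are highest in Sertoli-like cells in every library, Tjp1 varies least between classes, and Gja1 is higher in Leydig-like than in Sertoli-like cells in both cultures.

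Levels within Sertoli-like cells are given as CPM of the summed UMIs of the class. Differences are log2 ratios of CPM with 1 CPM added to each side, which understates the ratio of genes at a few CPM. In these cells, 13.2% of 12353 genes with at least 50 UMIs over all libraries differed at least 2-fold either way in the early pair (6.31% higher and 6.92% lower in culture). In the late pair 19.3% did (9.56% higher and 9.69% lower). Against that background, 4 of the 8 junction genes were past 2-fold in the early pair, with Jam2, Cldn3 and Cdh2 higher and Gja1 lower. The early difference of Cldn3 rests on 13 against 5 UMIs, with an interval that spans 2-fold, and the gene passed the minimum, which is summed over the 4 libraries, only through its 142 UMIs at 14 dpp. Without it, 3 of 7 genes were past 2-fold there, among them Cdh2 at 1.01, whose interval also spans 2-fold and which ranged from 0.91 to 1.38 over the other settings. Of the 8, 2 were past it in the late pair, with Jam2 higher and Cldn3 lower, and without Cldn3 1 of 7 was. Without cluster 19 Gja1 was also past it there, at -1.07. The median log2 ratio of the 8 genes was 0.46 in the early pair, beside -0.13 over all genes, and 0.27 in the late pair, beside -0.04. Without Cldn3 the medians of the other genes were 0.10 and 0.41. The early median lies midway between F11r at 0.10 and Cldn11 at 0.82, so leaving out any of the genes above it moves it to 0.10.

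**Figure D2:**
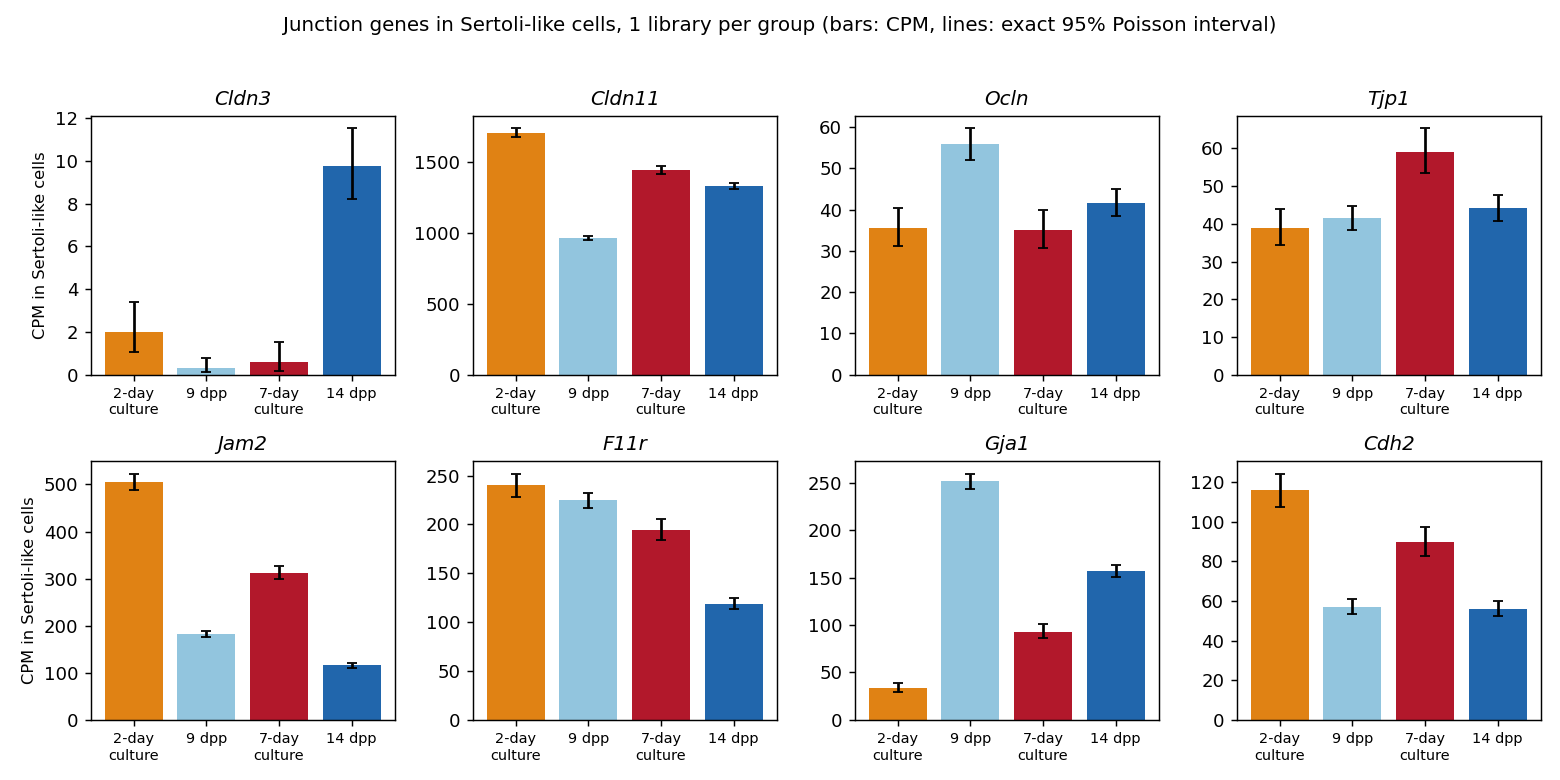
Level of each junction gene in Sertoli-like cells, in CPM on a linear axis from 0, with 1 bar per library and exact 95% Poisson intervals. Jam2 and Cdh2 are higher in both cultures than in both uncultured libraries, Gja1 is lower in both cultures, and Cldn3 stands out at 14 dpp with 9.78 CPM.

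Among the strand proteins, Cldn11 stood at 1707 CPM in the 2-day culture (1676 to 1739), against 963 at 9 dpp (948 to 979), 1448 in the 7-day culture (1419 to 1477) and 1333 at 14 dpp (1314 to 1351). The 4 intervals were separate, and 9 dpp was the lowest. The log2 ratio was 0.82 (0.79 to 0.86) in the early pair, a 1.77-fold difference, and 0.12 (0.08 to 0.16) in the late pair. The small excess in the late pair had the opposite sign without cluster 19, where it was -0.17. In cluster 15 alone the 14 dpp level of Cldn11 was 1636 CPM, and in cluster 19 it was 911. After each cell was thinned to 2000 UMIs, 85.3% to 93.9% of Sertoli-like cells still had a Cldn11 UMI, so it was found in most cells of every library.

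Cldn3 was near 0 in Sertoli-like cells except at 14 dpp. It stood at 1.98 CPM in the 2-day culture (13 UMIs, 1.05 to 3.38), against 0.329 at 9 dpp (5 UMIs, 0.107 to 0.769), 0.599 in the 7-day culture (4 UMIs, 0.163 to 1.53) and 9.78 at 14 dpp (142 UMIs, 8.23 to 11.5). The 14 dpp interval was far above the other 3. It was higher at 14 dpp than at 9 dpp by a log2 ratio of 3.02 (2.56 to 3.31) and lower in the 7-day culture than at 14 dpp by -2.75 (-3.24 to -2.05). The ratios of the CPM themselves were 29.7-fold and 16.3-fold.

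The UMIs of Cldn3 at 14 dpp were spread over many cells, with a UMI in 111 of 1087 Sertoli-like cells and at most 3 in one cell. By contrast, 3 of 529 cells of the 7-day culture had one, 4 of 878 at 9 dpp and 7 of 740 in the 2-day culture. After thinning to 2000 UMIs the shares were 1.87% at 14 dpp (1.13% to 2.91%) and 0.115% to 0.279% in the other libraries. In stromal or myoid-like cells of 14 dpp, which are not known to form this junction, the thinned share was 0.102% and the unthinned share 0.649%, with a median depth of 4062 UMIs against 10155 in Sertoli-like cells. The early pair, with 13 against 5 UMIs, is too thin to give more than its direction, and its log2 ratio of 1.16 had a counting interval of 0.48 to 1.64.

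Germ cell RNA also moved with the 14 dpp Sertoli-like cells. The summed early prophase markers in Sertoli-like cells were 154 CPM in the 2-day culture, 220 at 9 dpp, 355 in the 7-day culture and 1898 at 14 dpp, with all 8 markers detected in each. Spermatocyte-like cells themselves had 0.133 CPM of Cldn3 at 14 dpp. Spermatogonia-like cells had 6.59 CPM as a class, below the 9.78 CPM of Sertoli-like cells of the same library, but their cluster 8 had 10.1 CPM at 14 dpp. After thinning, 1.21% of spermatogonia-like cells of 14 dpp had a Cldn3 UMI (0.833% to 1.69%), which overlaps the share of Sertoli-like cells. In cluster 15 the germ cell markers took a median of 0.0693% of a cell's UMIs, against 0.625% in cluster 19, 0.0396% in cluster 9 and 0.0358% in cluster 12. Cldn3 stood at 11.8 CPM (9.62 to 14.4) in the 14 dpp cells of cluster 15 and at 7.03 (5.09 to 9.47) in those of cluster 19. The part of germ cell RNA in the level was not tested further.

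A cluster named rete or mesothelial-like from 3 of its markers, with 9 cells from the later culture and 2 from the 14 dpp testis, also carried Cldn3. Its cells held 19 of the 73 Cldn3 UMIs of the whole 7-day library. Coarser clustering counted all 9 cells as Sertoli-like, and the log2 ratio of Cldn3 in the late pair was then -1.40. Naming single cells by their marker UMIs counted 6 of them, and the ratio was -1.82. These cells were singled out after their values had been seen. In the Sertoli-like cells themselves the 6 rete or mesothelial markers summed to 1.98 CPM in the 2-day culture, 0.856 at 9 dpp, 2.25 in the 7-day culture and 9.50 at 14 dpp. At 14 dpp nearly all of it was Lrrn4, with 9.43 CPM against 0.761, 0.395 and 1.50 in the others, and Pax8, Krt7, Upk3b and Msln were at 0. The part of such cells in the Cldn3 level of Sertoli-like cells was not tested.

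Ocln was lower in culture in both pairs, by less than 2-fold. Its level was 35.6 CPM in the 2-day culture (31.2 to 40.5), against 55.8 at 9 dpp (52.1 to 59.7), 35.1 in the 7-day culture (30.7 to 39.8) and 41.7 at 14 dpp (38.4 to 45.1). The 9 dpp level stood above the others, and the intervals of the cultures and 14 dpp overlapped. Both statements rest on cluster 19: in cluster 15 alone the 14 dpp level was 52.6 CPM (47.8 to 57.7), which overlaps 9 dpp and is clear of both cultures. Its log2 ratio was -0.63 (-0.84 to -0.43) in the early pair and -0.24 (-0.46 to -0.03) in the late pair. Without cluster 19 the latter was -0.56.

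Among the adhesion molecules of the tight junction, Jam2 differed most. Its level in Sertoli-like cells was 506 CPM in the 2-day culture (488 to 523), against 182 at 9 dpp (175 to 189), 312 in the 7-day culture (299 to 326) and 116 at 14 dpp (111 to 122). Both cultures stood above both uncultured libraries, and within each kind the older tissue was lower. In cluster 15 alone the 14 dpp level was 132 CPM (124 to 140), and the late ratio without cluster 19 was 1.26. The log2 ratio of Jam2 was 1.47 (1.40 to 1.54) in the early pair and 1.42 (1.33 to 1.51) in the late pair, or 2.78-fold and 2.69-fold. Across the 14 other settings it stayed between 1.31 and 1.59 in the first pair and between 1.13 and 1.60 in the second. After thinning, 59.4% of Sertoli-like cells of the 2-day culture had a Jam2 UMI, against 33.1% at 9 dpp, and 43.6% of the 7-day culture, against 21.3% at 14 dpp. In spermatogonia-like cells the thinned share was between 0.0645% and 0.697%.

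F11r was close to level in the early pair and higher in culture in the late pair. It stood at 240 CPM in the 2-day culture (228 to 252), against 225 at 9 dpp (217 to 232), 194 in the 7-day culture (184 to 205) and 119 at 14 dpp (113 to 125). The log2 ratios were 0.10 (0.01 to 0.18) and 0.70 (0.60 to 0.81), and without cluster 19 the second was 0.44, with 143 CPM (135 to 151) at 14 dpp in cluster 15. The second came with a lower level at 14 dpp than at 9 dpp, by -0.91 (-0.99 to -0.83), while the cultures differed from each other by -0.30 (-0.41 to -0.20).

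Tjp1 was level in the early pair within its counting error. It stood at 39.0 CPM in the 2-day culture (34.3 to 44.0), against 41.4 at 9 dpp (38.3 to 44.8), 59.2 in the 7-day culture (53.5 to 65.3) and 44.2 at 14 dpp (40.8 to 47.8). The 7-day culture stood above the others, whose intervals overlapped. The log2 ratio was -0.09 (-0.30 to 0.12) in the early pair and 0.41 (0.23 to 0.59) in the late pair.

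Gja1 was the junction gene with the widest gap after 2 days of culture. Its level was 34.1 CPM in the 2-day culture (29.8 to 38.9), against 252 at 9 dpp (244 to 260), 93.2 in the 7-day culture (86.0 to 101) and 157 at 14 dpp (151 to 164). All 4 intervals were separate, with the 2-day culture lowest and 9 dpp highest. The log2 ratio was -2.85 (-3.04 to -2.66) in the early pair, a 7.39-fold lower level, and -0.75 (-0.88 to -0.62) in the late pair. The latter was -1.07 without cluster 19, past the 2-fold line, with 199 CPM (189 to 208) at 14 dpp in cluster 15. Of the 12353 genes, 0.243% had a ratio at or below that of Gja1 in the early pair.

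The share of Sertoli-like cells with a Gja1 UMI after thinning was 8.10% (6.21% to 10.3%) in the 2-day culture and 39.3% (36.0% to 42.6%) at 9 dpp. It was 19.7% (16.4% to 23.4%) in the 7-day culture and 28.8% (26.0% to 31.7%) at 14 dpp. Spermatogonia-like cells, which had little of this RNA, gave thinned shares of 0.194% to 0.293%. Median depths were 7355 and 14174.5 UMIs in the Sertoli-like cells of the early pair and 3723.5 and 11225 in its spermatogonia-like cells. The unnamed low-depth cells of the 2-day culture had 63.4 CPM of Gja1 (45.5 to 86.0), above the named cells of that library and below 9 dpp.

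Cdh2, the adherens junction cadherin of Sertoli cells, was higher in both cultures. It stood at 116 CPM in the 2-day culture (108 to 124), against 56.9 at 9 dpp (53.1 to 60.8), 89.7 in the 7-day culture (82.7 to 97.2) and 56.1 at 14 dpp (52.3 to 60.1). The uncultured libraries had overlapping intervals, and both cultures lay above them. In cluster 15 alone the 14 dpp level was 68.8 CPM (63.3 to 74.7), clear of 9 dpp, so the overlap rests on cluster 19. Its log2 ratio was 1.01 (0.87 to 1.15) in the early pair and 0.67 (0.52 to 0.82) in the late pair, and the latter was 0.36 without cluster 19.

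**Figure D3:**
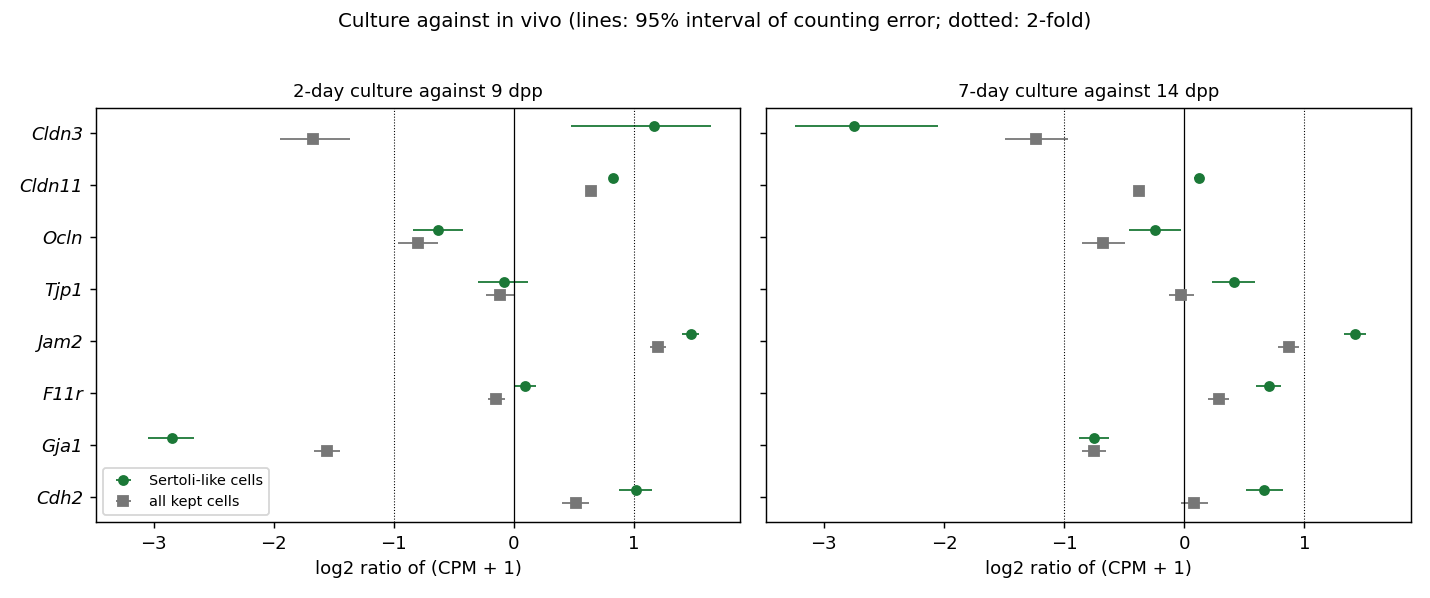
Log2 ratio of CPM + 1, culture against uncultured testis, for each junction gene in Sertoli-like cells (circles) and in all kept cells of the library (squares), with 95% intervals for counting error and dotted lines at 2-fold. Jam2 lies to the right in both pairs and Gja1 to the left, while Cldn3 in Sertoli-like cells lies at 1.16 in one pair and -2.75 in the other.

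The comparison over age in the uncultured testis and that over time in culture use the same libraries as the pairs above and are no further support for them. In Sertoli-like cells 14.9% of all genes differed at least 2-fold between 14 dpp and 9 dpp, and of the 8 junction genes only Cldn3 did, which leaves 0 of 7 without it. Jam2 was lower at 14 dpp by -0.64, Gja1 by -0.67 and F11r by -0.91, while Cldn11 was higher by 0.47. Ocln had -0.41 and Tjp1 0.09. Without cluster 19 the values of Jam2, Gja1, F11r and Cldn11 were -0.46, -0.35, -0.64 and 0.77, and Cdh2 moved from -0.02 to 0.29. For Ocln the 14 dpp level in cluster 15 alone was 52.6 CPM (47.8 to 57.7), which overlaps 9 dpp. Its ratio over age ranged from -0.42 to -0.06 in the 14 other settings. Between the 7-day and the 2-day culture 7.12% of all genes differed 2-fold, and of the 8 only Gja1 did, higher by 1.42 (1.21 to 1.65). The other ratios over time in culture were -0.90 for Cldn3, -0.69 for Jam2, -0.36 for Cdh2, -0.30 for F11r, -0.24 for Cldn11, -0.02 for Ocln and 0.59 for Tjp1.

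Summed over all cells of a library, 7.60% of 16616 genes differed at least 2-fold in the early pair and 6.27% in the late pair. Of the 8 junction genes 3 did in the first, namely Cldn3 at -1.67, Gja1 at -1.55 and Jam2 at 1.20, and only Cldn3 at -1.23 did in the second. The other ratios of the early pair were 0.64 for Cldn11, 0.51 for Cdh2, -0.80 for Ocln, -0.15 for F11r and -0.12 for Tjp1. Those of the late pair were 0.87 for Jam2, 0.29 for F11r, 0.08 for Cdh2, -0.02 for Tjp1, -0.67 for Ocln and -0.75 for Gja1. In such sums fewer Sertoli-like cells and less RNA per cell cannot be told apart. These cells held 20.5% of all UMIs after 2 days of culture and 18.0% after 7 days. At 9 dpp they held 26.4% and at 14 dpp 25.8%. The 20.5% leaves out the unnamed low-depth cells of the 2-day culture, which held a further 2.02% of its UMIs. With unnamed cells given their closest class, Sertoli-like cells numbered 1226 of 6877 in the 2-day culture and 888 of 5150 at 9 dpp. A lower share of Sertoli-like cells in the early pair therefore depends on leaving those cells unnamed. Cldn11 in the late pair had -0.38 over all cells and 0.12 within Sertoli-like cells. The latter ranged from -0.20 to 0.16 over the 14 other settings and kept its sign in 11 of them.

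The number of junction genes seen in a cell was counted at an equal depth of 2000 UMIs. The share with at least 3 of them was 43.3% in the 2-day culture, 38.9% at 9 dpp, 37.8% in the 7-day culture and 26.5% at 14 dpp. The share with at least 4 was 13.1%, 13.2%, 13.1% and 6.61% in the same order. The cells with none made up 0.698% in the 2-day culture and 5.13% at 14 dpp.

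In germ cells the junction genes differed between clusters, and the following split of the germ-like clusters was made after their values had been seen. The libraries had unequal parts in these clusters, so levels are given by library. Cldn3 stood at 10.8 CPM at 9 dpp and 10.1 at 14 dpp in cluster 8, the cluster of undifferentiated spermatogonia, and at 10.2 and 8.96 CPM in cluster 2 of differentiating spermatogonia. In the differentiating cluster 0 it was 4.87 and 3.15 CPM, and in clusters 3 and 5 it had 1 UMI in all over both of these libraries. In the 7-day culture it was 9.31 CPM in cluster 8 against 1.24 in cluster 0, while the 2-day culture, with 1 and 3 UMIs, showed no order. Ocln stood at 14.8 to 22.6 CPM over the 4 libraries in cluster 8 and at 0 to 0.827 in cluster 0. F11r stood at 41.0 to 68.5 CPM in cluster 8 and at 2.28 to 5.07 in cluster 0. Cdh2 ran the other way, with 6.86 CPM in cluster 8 and 32.1, 38.3 and 29.2 CPM in clusters 0, 3 and 5, all libraries summed. In each library the Cdh2 level of cluster 8, between 5.66 and 9.71 CPM, was below that of these 3 clusters, which lay between 20.7 and 47.8 CPM. Clusters 2 and 4, also of differentiating spermatogonia, are not given here for Ocln, F11r and Cdh2. The values of these genes therefore show no order over the whole stage.

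**Figure D4:**
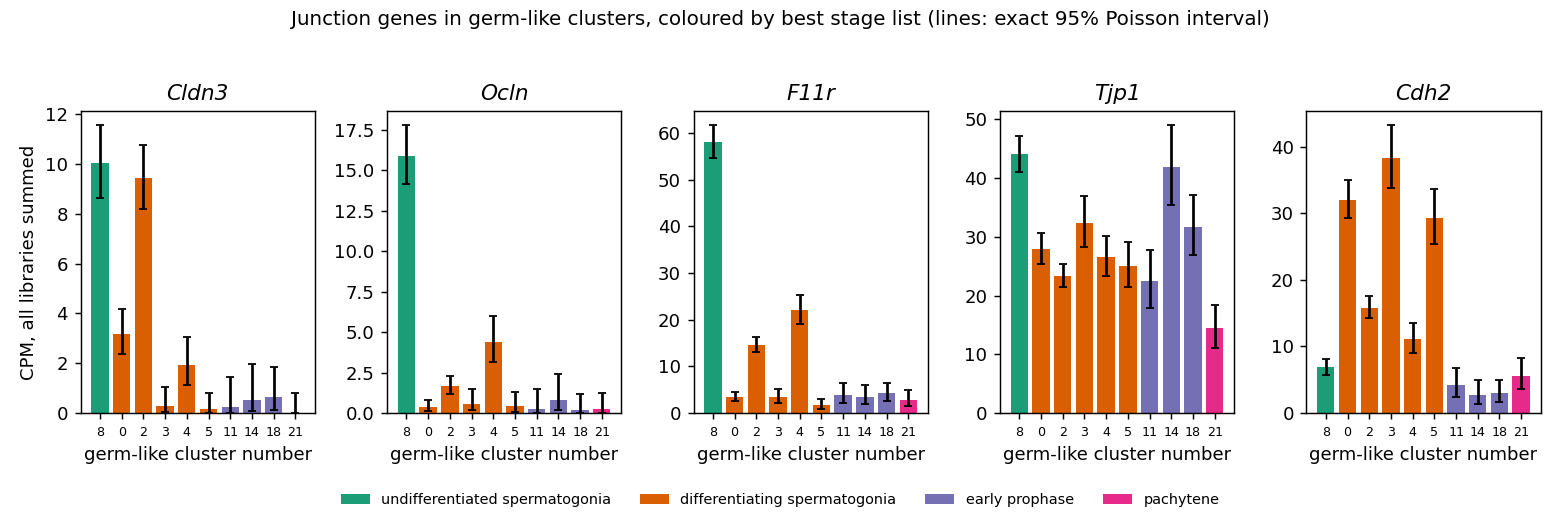
Level in CPM of 5 junction genes in each germ-like cluster, all libraries summed, on linear axes from 0, coloured by the stage list the cluster matched best, with exact 95% Poisson intervals. Ocln and F11r are highest in cluster 8 of undifferentiated spermatogonia, Cldn3 in clusters 8 and 2, and Cdh2 in differentiating clusters 0, 3 and 5, with libraries in unequal parts in each bar.

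Between cultured and uncultured spermatogonia-like cells, 4.04% of the genes tested differed 2-fold in the early pair and 2.50% in the late pair. Of the 8 junction genes, Cldn3 at -2.33 and F11r at -1.04 were past that line below and Cldn11 at 1.20 above it in the early pair, and Cldn11 at -1.19 in the late pair. Within that line lay Jam2 at 0.92 and 0.18, Ocln at -0.43 and -0.24, Gja1 at -0.28 and -0.55, Cdh2 at 0.08 and 0.19 and Tjp1 at 0.07 and -0.06, and in the late pair Cldn3 at -0.92 and F11r at 0.08. These cells were spread differently over the clusters: the 2-day culture had 1166 cells in cluster 4, 25 in cluster 2 and 124 in cluster 8, and 9 dpp had 89, 791 and 624. The part of this in the ratios of the class was not tested beyond cluster 8. Cldn3 stood at 0.887 CPM in spermatogonia-like cells of the 2-day culture (0.425 to 1.63), against 8.49 at 9 dpp (7.48 to 9.60), 3.01 in the 7-day culture (2.14 to 4.12) and 6.59 at 14 dpp (5.64 to 7.65). Both cultures were below both uncultured libraries. Within cluster 8 alone it had 1 UMI in 124 cells of the 2-day culture, and its levels were 10.8 CPM at 9 dpp, 9.31 in the 7-day culture and 10.1 at 14 dpp, so at this stage the late pair overlapped. For F11r within cluster 8 the log2 ratio was -0.73 (-1.30 to -0.20) in the early pair and 0.39 (0.10 to 0.69) in the late pair, and for Cldn11 it was 1.33 and -0.87, the latter with an interval that includes 0. Tjp1 there had 0.70 (0.23 to 1.13) in the early pair and 0.01 (-0.31 to 0.32) in the late pair. Cldn11 in spermatogonia-like cells stood at 15.5 CPM in the 2-day culture, 6.19 at 9 dpp, 4.09 in the 7-day culture and 10.6 at 14 dpp, beside 963 to 1707 CPM in Sertoli-like cells. RNA from one cell type was also found in others. In Sertoli-like cells the 6 germ markers of all stages reached 5.18% to 7.02% of their level in the other cells in 3 libraries. At 14 dpp, with the germ-rich cluster 19 among the Sertoli-like cells, they reached 24.0%. The part of RNA from other cells in the low levels above was not tested.

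In Leydig-like cells, the androgen-producing cells between the tubules, Gja1 ran against its course in Sertoli-like cells. It stood at 196 CPM in the 2-day culture (166 to 229), against 149 at 9 dpp (130 to 170), 285 in the 7-day culture (253 to 321) and 133 at 14 dpp (118 to 150). The log2 ratio was 0.39 (0.09 to 0.69) in the early pair and 1.09 (0.85 to 1.34) in the late pair. Cldn3, Cldn11, Ocln, Tjp1 and Cdh2 were under the UMI minimum there. Of the others, Jam2 was higher by 2.16 and 1.16, and F11r by 0.58 and 2.01, the early value of F11r with an interval that includes 0 (-0.12 to 1.26). In Leydig-like cells 15.8% and 13.4% of all genes tested were past 2-fold in these pairs. The class had 98 to 154 cells per library.

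In stromal or myoid-like cells, where 13.0% and 9.77% of genes were past 2-fold, Cdh2 was higher in culture by 1.68 and 1.14, and Cldn11 by 1.83 and 0.85. Gja1 was higher by 0.91 in the early pair, at 14.5 against 7.24 CPM, and had 0.63 in the late pair. Jam2 had 0.13 and 0.96, F11r 0.11 and -0.14 and Tjp1 -0.10 and -0.12, while Cldn3 and Ocln were under the UMI minimum. Cultured and uncultured cells of this class shared almost no cluster: the 2-day culture had 1131 and 1353 cells in the stromal clusters 1 and 7, and the 7-day culture had 667 and 776 in the stromal clusters 1 and 13. The 9 dpp library had 757 cells in the myoid cluster 6 and 747 in the stromal cluster 10, and 14 dpp had 633 and 440. The make-up of the class and culture cannot be told apart in these ratios. In endothelial-like cells, 21 to 67 per library, Jam2 stood at 26.1 CPM in the 2-day culture (15.5 to 41.2), against 54.3 at 9 dpp (31.1 to 88.2), 51.1 in the 7-day culture (35.4 to 71.4) and 136 at 14 dpp (105 to 174). It was thus lower in culture in the late pair, where the intervals were separate, unlike in Sertoli-like cells, and this difference was not tested. Over the libraries Tjp1 ranged from 69.1 to 123 CPM, F11r from 90.7 to 236 and Gja1 from 114 to 267, while Cldn3 had 1 UMI in all. Jam and ZO-1 proteins are also known from junctions of blood vessels.

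Other genes of the junction complex, from lists chosen by function, were taken with the same cells and the same minimum of 50 UMIs. Of 28 other tight junction genes in the files, 20 were tested, and 1 was at least 2-fold higher and 0 lower in the early pair, against 2 and 1 in the late pair. That is no more than the 13.2% and 19.3% of all genes past 2-fold in these cells. The one in the early pair was Cldn23 at 1.36 (28.5 against 10.5 CPM). In the late pair Pard3, which encodes a polarity scaffold, was higher at 1.91 and Cgnl1, which encodes the adaptor paracingulin, at 1.67, while Cldn7 was lower at -1.34 (10.0 against 26.9 CPM). The list's medians were 0.17 and 0.23.

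The next list held 17 tested genes of the adherens junction and the ectoplasmic specialization, the actin-rich anchoring junction of Sertoli cells. In the early pair 3 were at least 2-fold higher and 1 lower, beside 6.31% and 6.92% of all genes. In the late pair 4 were higher and 0 lower, beside 9.56% and 9.69% of all genes. Actn1, which encodes an actin-bundling protein, stood at 68.0 against 9.62 CPM in the early pair (2.70) and 20.1 against 4.20 in the late pair (2.02). Cdh3, which encodes P-cadherin, stood at 22.2 against 3.16 CPM (2.48) and 3.89 against 0.138 (2.11, with 26 against 2 UMIs). Ctnna2, an alpha-catenin gene, was higher at 1.36 and 1.06, Jup, which encodes plakoglobin, was higher at 2.00 in the late pair, and Lama3, a laminin gene, was lower in the early pair at 3.04 against 7.12 CPM, just past 2-fold. The medians were 0.16 and 0.30.

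The desmosome and intermediate filament list had the highest medians of the 5, at 0.96 and 1.32, with 3 of 8 tested genes at least 2-fold higher in the early pair and 5 of 8 in the late pair, and 0 lower, where 6.31% and 9.56% of all genes were that much higher. Krt18, the keratin known from immature Sertoli cells, stood at 64.2 CPM in the 2-day culture, 10.6 at 9 dpp, 19.5 in the 7-day culture and 0.207 at 14 dpp. Its partner Krt8 stood at 42.9, 13.6, 10.0 and 0.689 CPM. Both were highest in the 2-day culture and lowest at 14 dpp. Dsp, which encodes desmoplakin, stood at 10.0, 3.36 and 5.39 CPM and had 0 UMIs in Sertoli-like cells of 14 dpp, so that the 7-day culture was at least 26.1-fold higher against a limit of 3 UMIs in that library. The 0 depends on the naming, since the 2 rete or mesothelial-like cells of 14 dpp held 3 Dsp UMIs and the 9 of the 7-day culture held 16. The log2 ratios of Krt18 were 2.49 and 4.08, those of Krt8 1.59 and 2.71, and those of Dsp 1.34 and 2.68, the last with no UMI on one side.

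Only 4 of 12 other gap junction genes were tested. Gja6, a connexin gene known from the testis, was lower in culture in both pairs, at 0.457 against 5.07 CPM in the early pair (-2.06) and at 1.35 against 60.5 CPM in the late pair (-4.71). Gjc1, which encodes connexin 45, was lower at -2.04 in the late pair and Panx1, a pannexin gene, was higher at 1.89. The medians were 0.24 and -1.16.

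Of 14 barrier regulators, 1 was higher and 1 lower in the early pair and 3 were higher and 1 lower in the late pair, beside 13.2% and 19.3% of all genes past 2-fold either way. Tgfb2, a cytokine gene of the TGF-beta family, which is known to open the barrier, stood at 15.1 against 2.04 CPM (2.40) and 8.99 against 1.24 CPM (2.16). Tgfb3 was higher at 2.01 in the late pair, at 70.9 against 16.9 CPM, and at 0.70 in the early pair. Rhob, which encodes a small GTPase, was higher at 1.29 and Il1r1, an interleukin 1 receptor gene, lower at -1.53 in the late pair. Arhgef18 was lower at -1.02 in the early pair. The medians of this list were -0.08 and 0.16, beside -0.13 and -0.04 over all genes.

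**Figure D5:**
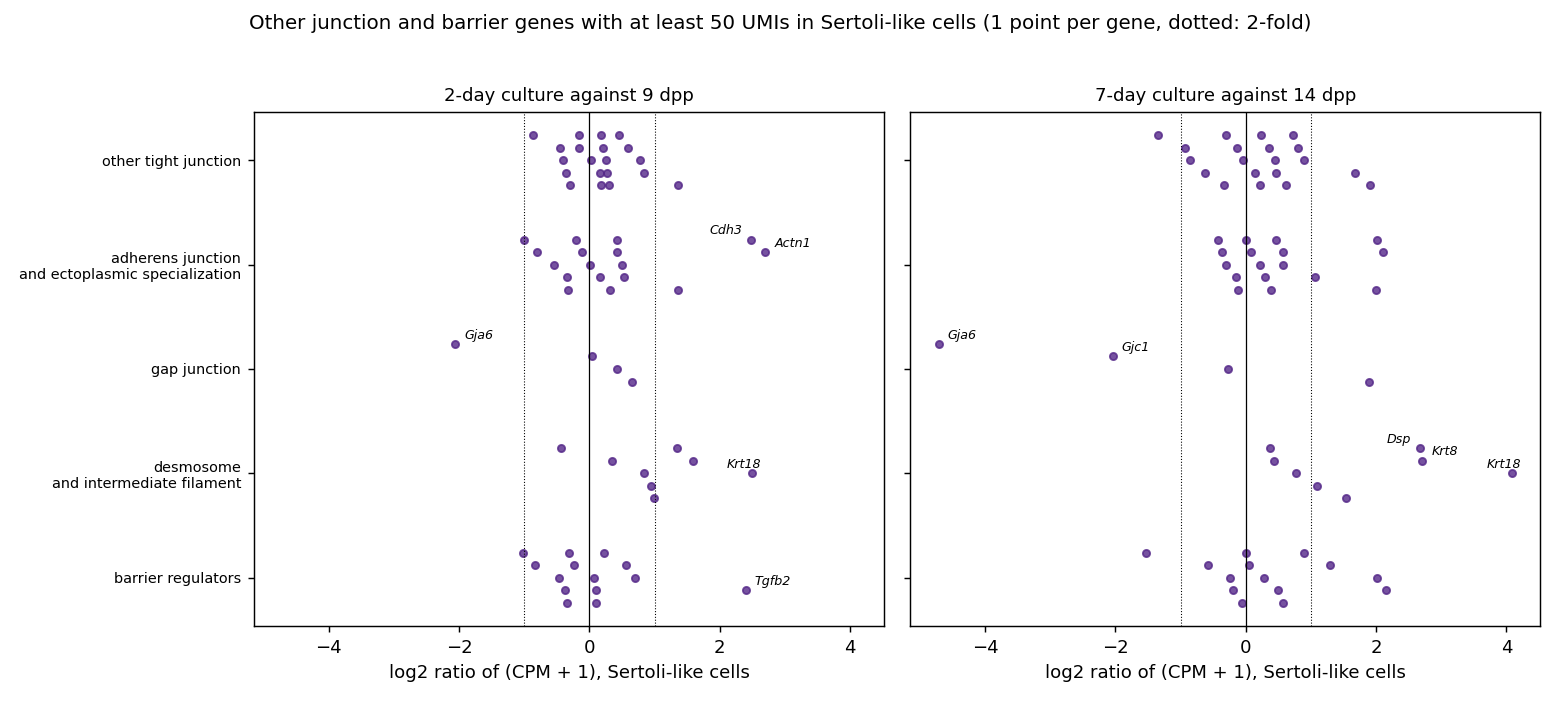
Log2 ratio of CPM + 1 in Sertoli-like cells, culture against uncultured testis, for each other junction or barrier gene with at least 50 UMIs, 1 point per gene in its list, with dotted lines at 2-fold. The desmosome and intermediate filament genes lie mostly to the right, up to 4.08 for Krt18, and Gja6 lies far to the left at -2.06 and -4.71.

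Markers of other cells moved with these comparisons. In Sertoli-like cells the 8 stromal markers summed to 124 CPM in the 2-day culture, 35.1 at 9 dpp, 44.0 in the 7-day culture and 22.9 at 14 dpp, all 8 detected in each library. The 8 endothelial markers summed to 6.59 to 14.8 CPM and the 6 Leydig markers to 17.1 to 64.4 CPM. The 5 erythroid markers summed to 20.4, 19.0, 1.65 and 175 CPM in the same order, with 4, 4, 1 and 5 of them detected. Their part in the ratios was not tested. The Sertoli markers themselves summed to 18242 CPM in the 2-day culture, 29817 at 9 dpp, 21696 in the 7-day culture and 32058 at 14 dpp. Amh, the Sertoli hormone of the immature testis, stood at 31.7, 752, 138 and 156 CPM in the same order, with the lowest value in the 2-day culture and the highest at 9 dpp. Other Sertoli markers ran differently: Sox9, at 525, 374, 496 and 209 CPM, and Wt1, at 548, 424, 508 and 316, were highest in the 2-day culture, while Cst9, Cst12, Defb19 and Defb36 were highest at 14 dpp. These markers were picked out after their values had been seen.

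The genes whose levels ran most like each junction gene were found over 20 points, the 5 classes in 4 libraries, by Pearson's r of log2(CPM + 1) among 13898 genes. The points share libraries and cells, so r is a description. For Cldn11 the nearest was Gatm at 0.98 and for Ocln Rasal1 at 0.98. Jam2 ran with Plxnc1 at 0.97 and Gata6, a transcription factor gene of Sertoli and Leydig cells, at 0.96. F11r ran with Arhgef18 at 0.96, Gja1 with Folr1 at 0.97 and Cdh2 with Tpd52 at 0.94. Cldn3 had the lowest nearest value, 0.85 for 2010300C02Rik, followed by Utf1, a gene of undifferentiated spermatogonia, at 0.81. Others among the nearest were Cidea and Slc52a3 for Cldn11, Camsap3 for Ocln, Tspan5 and Clip4 for F11r, Rmdn2 and Gm2044 for Gja1, Ptk2b and Stxbp6 for Cdh2, Dact2 for Cldn3, AC167229.1 for Jam2, and Napepld, 4930550L24Rik and Srsf9 for Tjp1.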

How the data were processed

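Single-cell RNA sequencing of mouse testis used 4 Chromium 3′ v2 libraries, per the labels' protocols. In the labels the library protocol mentions female gonads although the tissue is given as testis; germ and Sertoli markers of the testis were present in every library. The deposited values are raw counts of UMIs per gene and barcode that the authors made with Cell Ranger 3.0.2 on mm10, per the submitters' processing notes; the cell calling settings are not given in the sources used here. The files give no strand setting, so overlapping genes cannot be told apart.

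Kept barcodes had 500 or more genes and no more than 20% mitochondrial UMIs, and Scrublet calls, made in scanpy 1.11.5 with an expected rate of 6%, were removed (1.89% to 3.55% of the barcodes that passed). The 2000 most variable genes, without junction lists and mitochondrial genes, 30 principal components and 20 neighbours went into Leiden clustering (leidenalg 0.10.2, resolution 1) of all libraries together. A cluster was named from fixed markers, at least 3 of which had to be detected. It was left unnamed if markers of another class outnumbered its own among its 10 leading genes. The same held if its depth was low and none of these genes was a marker of its class. Raw counts were summed per library and class. Levels are CPM with exact Poisson intervals, ratios are of CPM + 1 with exact conditional binomial intervals, and Clopper-Pearson intervals (exact) go with shares of cells. Cells were thinned to 2000 UMIs for shares, which left out shallower cells. With 1 library per group no test was run. The ratio script was checked on simulated counts.

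All 8 genes were named in each comparison given over all cells and within the Sertoli-like, spermatogonia-like, stromal or myoid-like and Leydig-like classes. Those under the UMI minimum have no value. Within single germ-like clusters and in endothelial-like cells only some of the 8 were given. Ratios within spermatocyte-like cells are not given. Of each other list, up to 3 higher and 3 lower genes past 2-fold were named per culture pair, and for each junction gene the 3 nearest genes by correlation among those with at least 200 UMIs, of which 1 is not reported here. Ctnna2 in the late pair, and Tgfb3 and the other pair's values of named genes, were given beside them for comparison. The genes, lists and settings were chosen with earlier results of these data known. Symbols Pvrl2, Pvrl3, Mllt4, Pals1 and Cldn25 of the lists were not matched. Of the alternatives, 14 concern the ratios of the junction genes, with edgeR 4.0.16 for TMM factors. Python 3.11.15, numpy 2.4.6 and scipy 1.17.1 were used.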

Additional observations from a re-analysis of the deposited data

Results flagged for a closer look

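Several junction genes had ratios on opposite sides of 0, with both counting intervals clear of 0, in comparisons of the same kind: in the 2 culture pairs, in cell classes of the same pair, or over age against over time in culture. With 1 library per group none of these differences was tested, and the search covered the Sertoli-like, spermatogonia-like, stromal or myoid-like and Leydig-like classes. Outside it, Jam2 in endothelial-like cells of the late pair, at 51.1 against 136 CPM, also ran opposite to Sertoli-like cells. That value rests on 24 and 45 cells, whose thinned shares with a Jam2 UMI overlapped. Cultured and uncultured cells of the Sertoli-like and stromal or myoid-like classes lay largely in different clusters, and those of the spermatogonia-like class were spread differently over clusters. Cldn3 in Sertoli-like cells had a log2 ratio of 1.16 in the early pair and -2.75 in the late pair. It had 3.02 for 14 dpp against 9 dpp and -0.897 for the 7-day against the 2-day culture. In spermatogonia-like cells of the early pair it had -2.33, beside the 1.16 of Sertoli-like cells. The early pair in Sertoli-like cells rests on 13 and 5 UMIs. The ratio over time in culture rests on 4 and 13 UMIs and kept its sign in 12 of the 14 other settings.

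Gja1 had -2.85 in Sertoli-like cells of the early pair but 0.908 in stromal or myoid-like and 0.392 in Leydig-like cells. In the late pair it had -0.751 in Sertoli-like and 1.09 in Leydig-like cells. Over age it had -0.675 and over time in culture 1.42 in Sertoli-like cells.

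Cldn11 in Sertoli-like cells had 0.468 over age and -0.238 over time in culture. In the late pair it had 0.12 in Sertoli-like and -1.19 in spermatogonia-like cells. F11r in the early pair had 0.0952 in Sertoli-like and -1.04 in spermatogonia-like cells. The small positive values of Cldn11 and F11r are close to 0, and that of Cldn11 changed sign in 3 of the 14 other settings.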

How the results depend on the processing

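Of 448 values recomputed under the other settings, 373 stayed within their counting interval and 75 moved beyond it, while 432 kept their sign. Of the ratios past 2-fold in the main setting, 0 changed sign. Smaller ratios did so, and Cldn11 in the late pair changed sign beyond its counting interval. The median ratio of the 8 genes in Sertoli-like cells was 0.46 in the early pair; with 10 CPM added it was 0.15 and with TMM factors 0.58. In the late pair it was 0.27; it was 0.085 with cells named by their own marker UMIs, 0.099 without the germ-rich Sertoli-like cluster and 0.072 after subtraction of free RNA. Between 14 dpp and 9 dpp it was -0.22, and in the same order -0.020, -0.016 and 0.018. Free RNA was estimated from the germ markers in all Sertoli-like cells, at 14 dpp with the germ-rich cluster among them. With 10 CPM added, the count of genes past 2-fold was 2 in place of 4 in the early pair and 1 in place of 2 in the late pair. Without the germ-rich cluster Gja1 was also past 2-fold in the late pair, at -1.07. Without Cldn3, an alternative chosen after seeing the data, the medians were 0.095 in the early pair, 0.41 in the late pair and -0.41 between 14 dpp and 9 dpp, and the late count was 1. Adding 10 CPM draws ratios of low genes to 0 by construction; for the other settings the cause was not tested, apart from the Cldn3 UMIs of the rete or mesothelial-like cells given above. TMM factors raised the median over all genes by 0.11 in the early pair. Cldn11 in the late pair ranged from -0.20 to 0.16. Cldn3 ranged from -3.82 to -0.90 in the late pair, from 0.21 to 2.28 in the early pair and from 0.94 to 4.52 over age; over time in culture it ranged from -1.57 to 0.64. Gja1 ranged from -2.92 to -2.57 and from -1.07 to -0.56 in the culture pairs. Without a UMI minimum 9.24% and 13.1% of all genes were past 2-fold in the pairs, and with at least 500 UMIs 9.30% and 13.3%. Depth limits Cldn3 most, at 4 to 13 UMIs in Sertoli-like cells of 3 libraries. No paired analysis was possible because each group has 1 library and the labels give no replicate numbers.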
